A study of Rattus norvegicus with 45 samples.

Results

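The genes described here are 8 genes of the immunoproteasome and of peptide supply to major histocompatibility complex (MHC) class I, namely Psmb8, Psmb9, Psmb10, Psme1, Psme2, B2m, Tap1 and Tap2. They were taken by gene symbol from the count tables, where all 8 are present among 40643 gene identifiers. The set was chosen by measured values of Psmb8 in females of the highest mixture dose, set against females of corn oil. That contrast is therefore given as a description, with no test.

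The libraries were made by 3′ Tag-seq, which counts transcripts by short reads from their 3′ ends, from the medial preoptic area of rat pups on postnatal day 10. This part of the hypothalamus is known for its roles in mating and in the care of young. The pups themselves were not dosed after birth: their dams were dosed from gestation day 8 until they gave birth. For 6 female and 5 male libraries the dam received bisphenol A (BPA) at 50 µg/kg/day. For 6 female and 6 male libraries the dam received a mixture at 50 µg/kg/day, in which BPA, bisphenol S and bisphenol F had equal shares, and for 5 female and 6 male libraries the same mixture at 150 µg/kg/day. The dams of the remaining 5 female and 6 male libraries received the vehicle, corn oil. The 45 libraries came from 24 litters, 6 per exposure, and 21 litters gave a library of each sex. The deposited counts are labelled as having outliers removed, so group sizes and spreads may be of groups already trimmed. Dams were assigned to an exposure as pairs that shared a cage, so a p-value over litters leaves a shared cage out of account. The 3 bisphenols share their phenol rings and have different groups bridging them.

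Proteasomes cut cellular proteins into peptides with 3 catalytic subunits, encoded by Psmb5, Psmb6 and Psmb7. Interferon-gamma induces Psmb8, Psmb9 and Psmb10, whose products take the place of these subunits and make the immunoproteasome, and it also induces Psme1 and Psme2, whose products form the PA28 activator ring. Tap1 and Tap2 encode the transporter that moves the peptides into the endoplasmic reticulum, where they are loaded onto MHC class I heavy chains paired with beta-2 microglobulin, the product of B2m. In brain, microglia and endothelial cells are known to carry much of this machinery, and neurons express MHC class I during development.

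Of the 8 genes, 6 carry a GAAANNGAAA repeat, the spacing of the interferon-stimulated response element, between 250 bases before and 50 bases after their transcription start. The windows below are 40 bases each, taken from RefSeq promoter sequences of build GRCr8 on the strand that reads the repeat, with the repeat in capitals. They are shown because they are the sequence that members of separate chromosomes share. The Psmb8 window lies at chr20:4657011-4657050 on the forward strand, the Tap1 window at chr20:4668640-4668679 on the forward strand and the Tap2 window at chr20:4652313-4652352 on the reverse strand. The Psmb10 window lies at chr19:50743285-50743324 on the reverse strand, the Psme2 window at chr15:33052780-33052819 on the reverse strand and the B2m window at chr3:129549165-129549204 on the forward strand.
Psmb8: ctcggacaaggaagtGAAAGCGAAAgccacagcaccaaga
Psmb10: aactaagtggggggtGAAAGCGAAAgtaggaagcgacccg
Psme2: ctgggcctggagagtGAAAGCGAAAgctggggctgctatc
Tap2: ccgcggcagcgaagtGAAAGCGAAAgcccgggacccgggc
Tap1: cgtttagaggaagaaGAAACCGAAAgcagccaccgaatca
B2m: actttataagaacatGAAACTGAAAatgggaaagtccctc

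The repeat, searched on both strands, was in 1312 of 33469 RefSeq promoter windows of the same length (3.92%). It was in 0 of the 3 windows of Psmb5, Psmb6 and Psmb7, and in neither the Psmb9 nor the Psme1 window. Psmb10 held 2 copies. In Psmb8, Psmb10, Psme2 and Tap2 the repeat stands inside the longer run GTGAAAGCGAAAG, which was in 5 of the 33469 windows (0.0149%). The fifth window belonged to Ythdc2. This longer run was chosen after the members' windows had been read, so its rarity is a description. The first base of the repeat, read along each gene, lay 4 bases before the start in Psmb8, 17 in Psmb10, 41 in Tap2, 53 in Psme2, 121 in Tap1 and 150 in B2m. TTCNNNGAA, the letters of the gamma-activated site, which read alike on both strands, were in 2970 windows (8.87%) and, among the members, in that of Psmb8. In this assembly Tap2, Psmb8, Tap1 and Psmb9 are neighbours in that order on chromosome 20, inside the MHC. Tap1 and Psmb9 are transcribed away from each other from starts 457 bases apart, and their windows share 44 bases. The Tap1 repeat lies between these starts, beyond the 250 bases searched before the Psmb9 start. Psme1 and Psme2 are both on chromosome 15, B2m is on chromosome 3 and Psmb10 on chromosome 19.

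The female libraries held 4397460 to 7223180 counts each, and the male libraries 4747461 to 6740045. Of the 8 members, 7 passed the filter on low counts in each table, among 18354 genes tested in females and 18426 in males. Tap2 did not pass in either table. Its counts ran from 1 to 6 per library in females and from 0 to 9 in males. Summed neuron markers stood between 2970 and 3839 CPM, which are counts scaled to the library total, over all libraries. Of 9 preoptic markers 6 were tested and Hmx3 was at 0 in every library. Summed striatal markers, from a neighbouring region, ran from 382 to 1653 CPM. All 14 microglial markers were tested, with sums from 181 to 285 CPM, but only 1 of 12 lymphocyte markers, Cd4, was tested, and lymphocyte sums stayed between 2.91 and 9.76 CPM. In bulk tissue, fewer cells of a type and less RNA per cell cannot be told apart.

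**Figure D1:**
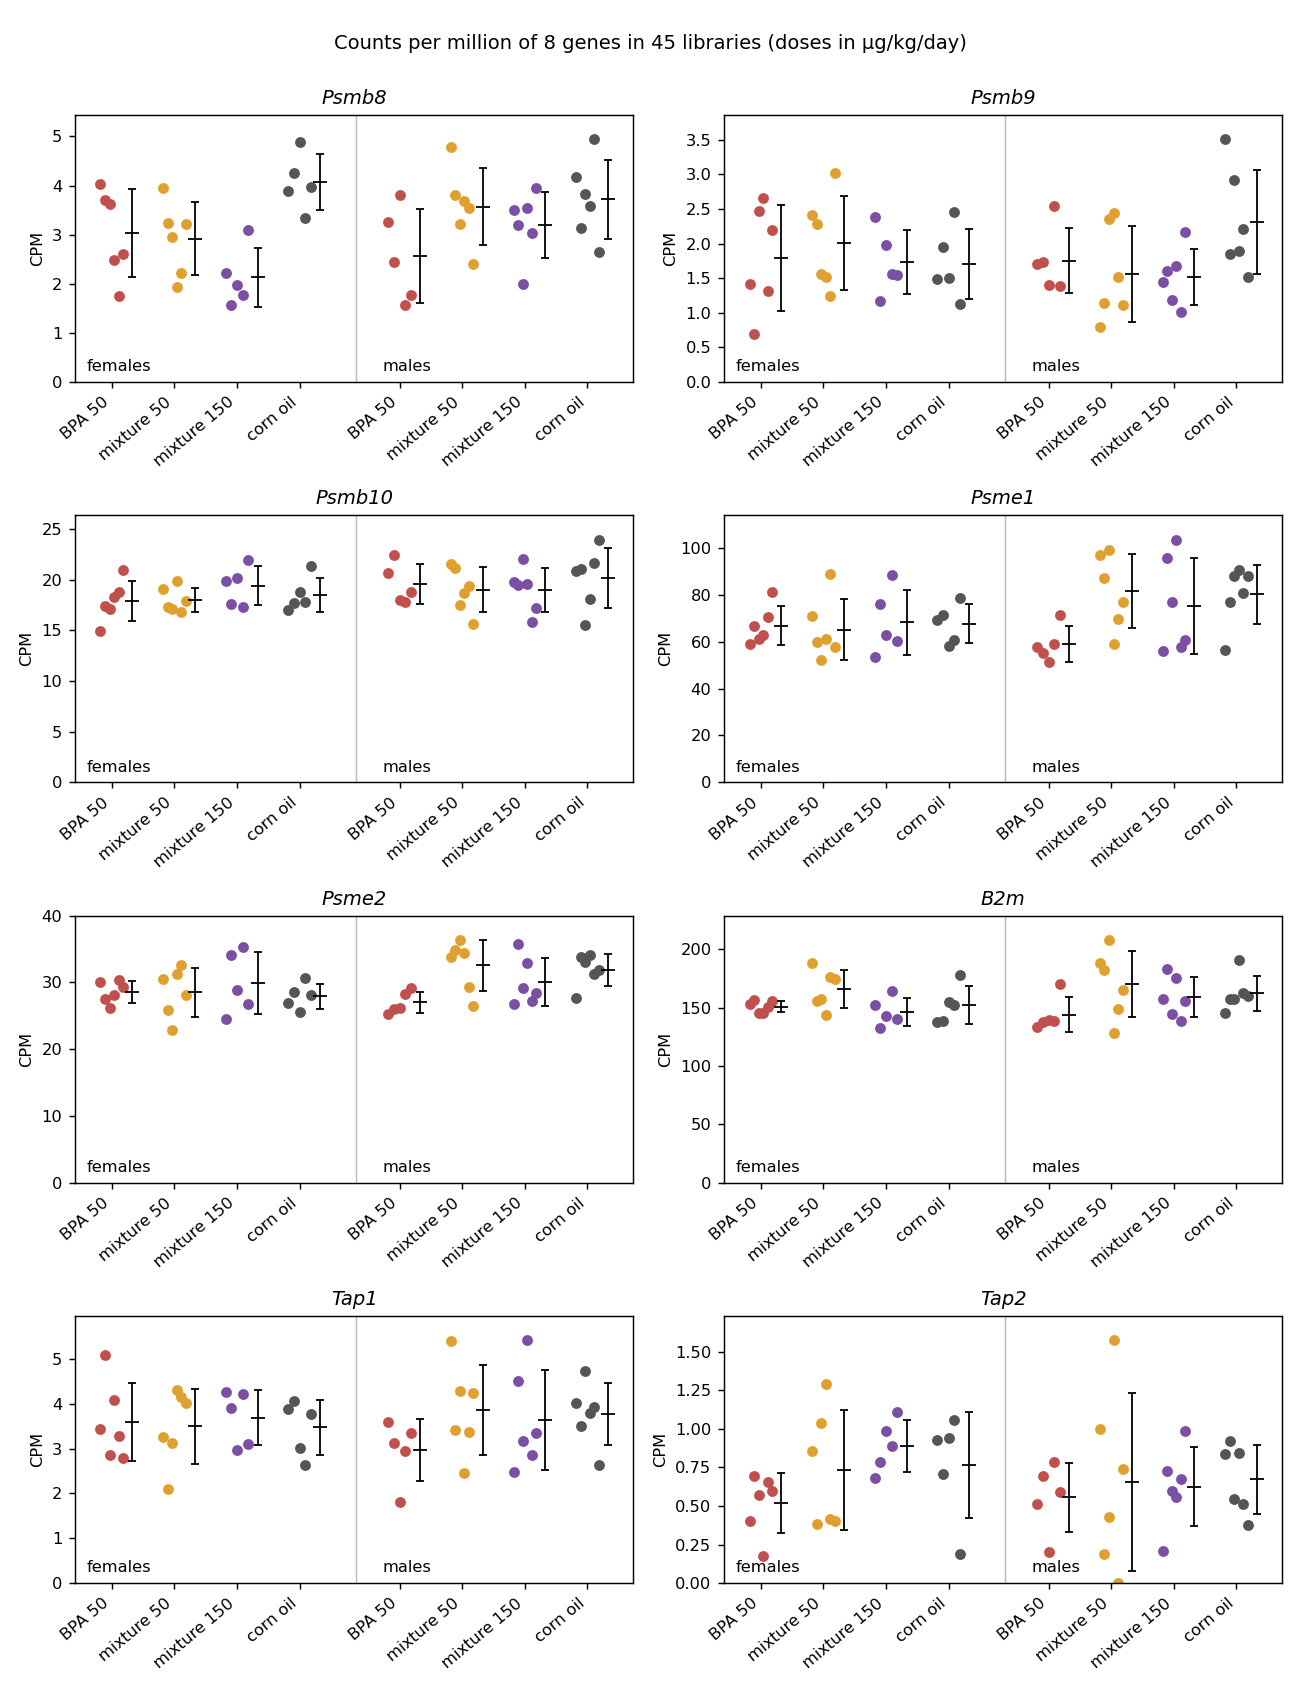
CPM (vertical axes, starting at 0) of the 8 genes in each of the 45 libraries, by exposure of the dam, with doses in µg/kg/day. Points are libraries, and the dash and bar beside them are the mean and SD of the group. Female Psmb8 is lower at 150 µg/kg/day of the mixture (1.57 to 3.10 CPM) than with corn oil (3.34 to 4.90 CPM), and most other groups overlap.

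Psmb8 encodes the immunoproteasome subunit that takes the place of Psmb5. It had 2.21, 1.57, 1.98, 1.78 and 3.10 CPM in females of the 150 µg/kg/day mixture, against 3.89, 4.25, 4.90, 3.34 and 3.96 CPM in females of corn oil. All 5 mixture libraries lay below all 5 oil libraries. Over all genes tested, 0.223% had every library of this mixture group below every oil library, and nothing is read from this since the contrast chose the gene. The means were 2.13 ± 0.596 and 4.07 ± 0.568 CPM (SD, n = 5 each), a log2 difference of -0.93, or 0.524-fold. The value rests on 8 to 14 counts per mixture library and 19 to 26 per oil library. Leaving out 1 library at a time moved the difference between -1.09 and -0.84.

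In females of the other exposures Psmb8 also lay under the oil mean. With BPA the lowest, median and highest values were 1.75, 3.11 and 4.04 CPM, against 3.34, 3.96 and 4.90 CPM with corn oil. With the 50 µg/kg/day mixture they were 1.94, 3.08 and 3.96 CPM. All 6 BPA libraries and all 6 libraries of this mixture dose were below the oil mean of 4.07 CPM, but both groups overlapped the oil group. The log2 differences from oil were -0.42 for BPA and -0.47 for the mixture. They share with the contrast above the oil libraries that entered the choice of the gene, so they are given without an interval or a p-value.

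Male libraries had no part in the choice of Psmb8 by its female values. The list of members was, however, drawn up with earlier results of these data known. Since 21 litters gave a library of each sex, most male libraries share a dam with a female library. Psmb8 values in males were 3.25, 2.43, 3.80, 1.57 and 1.78 CPM with BPA. Male oil libraries had a lowest, median and highest value of 2.64, 3.70 and 4.95 CPM. Of the 5 BPA libraries, 3 lay below every oil library and the other 2 within their range. The log2 difference was -0.53 ± 0.23 (SE), with an unadjusted p of 0.029 and an adjusted p of 0.412 by edgeR's quasi-likelihood test over all genes. At the 50 µg/kg/day mixture the male values ran from 2.40 to 4.79 CPM, with a log2 difference from oil of -0.07 (95% interval -0.50 to 0.36). At 150 µg/kg/day they ran from 1.99 to 3.95 CPM, with -0.22 (-0.66 to 0.21). Both male mixture groups overlapped the oil group.

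The effect on Psmb8 was also set against its counterpart in the other sex. The fit for this and for the later sex differences took littermates as independent. The female minus male difference was 0.11 for BPA and -0.41 for the 50 µg/kg/day mixture. Both are again given without an interval or a p-value because the same female oil libraries enter. For the 150 µg/kg/day mixture, whose female value chose the gene, it was -0.71, given as a description.

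Psmb9, which encodes the subunit that takes the place of Psmb6, followed another order. In males of the 150 µg/kg/day mixture it had a lowest, median and highest value of 1.01, 1.52 and 2.17 CPM, against 1.51, 2.06 and 3.51 CPM in males of corn oil. All 6 libraries of that dose lay below the oil mean of 2.32 CPM and 3 lay below every oil library. The log2 difference was -0.62 ± 0.27 (unadjusted p = 0.032, adjusted p = 0.992 by edgeR). The 50 µg/kg/day mixture gave -0.57 ± 0.28 (unadjusted p = 0.046), and BPA -0.41 ± 0.28 (unadjusted p = 0.161). These male differences rest on 4 to 21 counts per library.

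Female Psmb9 lay near oil with every exposure. Its log2 differences were 0.10 with BPA, 0.20 with the 50 µg/kg/day mixture and 0.03 with the 150 µg/kg/day mixture, each with a standard error of 0.30 to 0.33. The 50 µg/kg/day mixture effect, female minus male, was 0.78 (95% interval -0.037 to 1.59, unadjusted p = 0.061), so a difference between the sexes did not pass the test.

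Psmb10, whose product takes the place of Psmb7, was the steadiest of the 3 catalytic members. Its group means ran from 17.9 to 19.4 CPM in females and from 19.0 to 20.2 CPM in males, and its coefficient of variation over libraries was 9.23% in females and 11.7% in males. Over the 6 differences from oil its log2 values ran from -0.09 to 0.07. Psmb8 varied over libraries by 31.3% in females and 26.3% in males, at far lower counts.

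The constitutive counterparts were close to oil in females. In males of BPA, Psmb5 differed from oil by -0.14 ± 0.06, Psmb6 by -0.18 ± 0.07 and Psmb7 by -0.12 ± 0.06 on the log2 scale, with unadjusted p of 0.027, 0.012 and 0.039 and adjusted p of 0.375 to 0.427. Psmb6 had 98.02, 102, 102, 96.9 and 101 CPM in the BPA libraries, against a lowest, median and highest of 103, 112 and 129 CPM with corn oil. Every BPA library lay below every oil library for Psmb6 and for Psmb7, which 0.44% of all genes tested did. Psmb5 was also at -0.17 ± 0.06 in males of the 150 µg/kg/day mixture (unadjusted p = 0.00698, adjusted p = 0.992 by edgeR), where the groups overlapped. In BPA males the lower values were not restricted to the immunoproteasome subunits, and no subunit passed the adjusted test.

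Psme1 encodes the alpha subunit of the PA28 ring. It had 58.0, 55.4, 51.5, 58.9 and 71.7 CPM in males of BPA, against a lowest, median and highest of 56.7, 84.5 and 90.9 CPM in males of corn oil. All 5 BPA libraries lay below the oil mean of 80.4 CPM, and 5 of the 6 oil libraries lay above all of them. The log2 difference was -0.44 ± 0.17 (0.736-fold, unadjusted p = 0.018, adjusted p = 0.402 by edgeR). Leaving out 1 library at a time moved it between -0.53 and -0.40.

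Psme2 encodes the beta subunit of the same ring. It had 25.3, 26.1, 26.2, 28.2 and 29.2 CPM in males of BPA, against a lowest, median and highest of 27.6, 32.4 and 34.1 CPM in males of corn oil. Of the BPA libraries 3 lay below every oil library, and again the lowest oil library alone reached down into the BPA range. The log2 difference was -0.24 ± 0.09 (0.846-fold, unadjusted p = 0.012, adjusted p = 0.375 by edgeR). With the mixture the male differences were between -0.09 and 0.03 for both genes. In females the 6 differences of both genes from oil ran from -0.05 to 0.10. The BPA effect on Psme2, female minus male, was 0.28 (95% interval 0.011 to 0.54, unadjusted p = 0.041, adjusted p = 0.698 by edgeR), with littermates taken as independent.

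**Figure D2:**
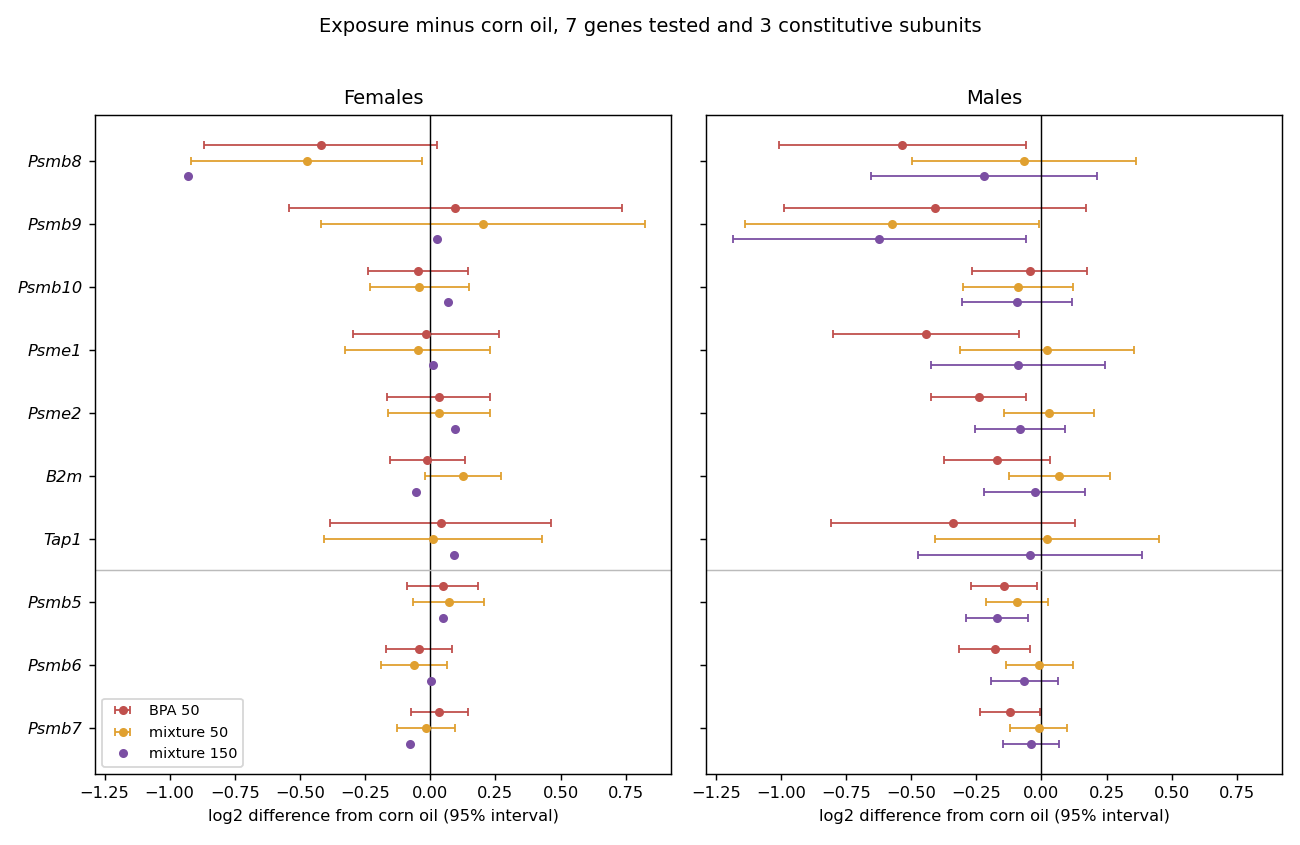
Log2 difference of each exposure from corn oil (horizontal axis) for the 7 members tested and, under the line, the 3 constitutive subunits, in females and males. Bars are 95% intervals, and the female 150 µg/kg/day mixture is drawn without them because that contrast chose the set. The female Psmb8 bars share the oil libraries that entered the choice, so they are no test. All 7 members lie left of 0 in males of BPA, and Psmb8 alone stands well left of 0 in females.

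B2m, the light chain common to MHC class I molecules, had 133, 138, 140, 139 and 171 CPM in males of BPA, against a lowest, median and highest of 145, 159 and 191 CPM in males of corn oil. Of the 5 BPA libraries 4 lay below every oil library and the remaining one lay above 5 of the 6. The log2 difference was -0.17 ± 0.10 (unadjusted p = 0.097, adjusted p = 0.510 by edgeR), and without that high library it was -0.24. In females of the 50 µg/kg/day mixture B2m was at 0.13 ± 0.07 against oil (unadjusted p = 0.085). The other B2m differences from oil ran from -0.06 to 0.07.

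Tap1 encodes one chain of the peptide transporter. It had 3.59, 3.13, 1.80, 2.94 and 3.36 CPM in males of BPA, against a lowest, median and highest of 2.64, 3.86 and 4.74 CPM in males of corn oil. All 5 BPA values lay under the oil mean of 3.77 CPM and 1 lay below every oil library. The log2 difference was -0.34 ± 0.23 (unadjusted p = 0.149), and all other Tap1 differences from oil were between -0.04 and 0.09. Tap2, the other chain, was too rare to test. Its group means ran from 0.517 to 0.890 CPM in females and from 0.557 to 0.673 CPM in males, all groups overlapped, and a difference was not detectable at this depth.

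Counted together, 0 of the 7 members tested passed an adjusted p of 0.05 by edgeR in any of the 5 tested comparisons with oil, where 0% of all genes passed, and 0 passed by DESeq2. In males of BPA 7 of 7 members lay below oil, as did 50% of all genes tested, and 3 of 7 were lower at an unadjusted p under 0.05, as were 5.43% of all genes. The members' median log2 difference was -0.34 there, where that of all genes was 0.00. The members were listed with earlier results of these data known, so these counts are no independent test. At 150 µg/kg/day of the mixture 7 of 7 lay below oil (49.2% of all genes), 1 of 7, Psmb9, at an unadjusted p under 0.05 (1.81% of all genes), and the median was -0.09, again in males. In males of the 50 µg/kg/day mixture 3 of 7 lay below (49.2%), with Psmb9 again the 1 at an unadjusted p under 0.05 (1.62%), and the median was 0.02.

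In females the counts stayed near those of all genes. With BPA 4 of 7 lay below oil (50.3% of all genes), 3 of 7 with the 50 µg/kg/day mixture (48%) and 2 of 7 with the 150 µg/kg/day mixture (49.1%). The medians were -0.01, 0.01 and 0.03. With Psmb8 left aside, 0 of the other 6 had an unadjusted p under 0.05 with BPA (2.14% of all genes higher and 1.49% lower) or with the 50 µg/kg/day mixture (2.18% and 2.68%). Psmb9, Tap1 and Tap2 are neighbours of Psmb8 on chromosome 20. In the group where Psmb8 was lowest, Psmb9 differed from oil by 0.03 ± 0.33 and Tap1 by 0.09 ± 0.21 (SE). Tap2 had its highest group mean there, on 4 to 5 counts per library. Whether these neighbours changed along with Psmb8 was not tested.

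At matched doses the compounds were compared in 4 tests, 2 per sex, each adjusted over all genes. With equal total dose, the 50 µg/kg/day mixture against BPA, 3 of 7 members were higher in males at an unadjusted p under 0.05, as were 6.18% of all genes. Psme1 was at 0.46 (95% interval 0.11 to 0.82), Psme2 at 0.27 (0.085 to 0.45) and B2m at 0.24 (0.035 to 0.44) on the log2 scale, with adjusted p of 0.331 to 0.368 by edgeR, so 0 members passed, also by DESeq2. Psmb8 was at 0.47 (-0.013 to 0.95). Psme2 had a lowest, median and highest of 26.5, 34.1 and 36.4 CPM with this mixture, against 25.3, 26.2 and 29.2 CPM with BPA, and the groups overlapped. This comparison shares the BPA libraries with the one against oil. Summed striatal markers had a lowest, median and highest of 382, 662 and 1089 CPM with the mixture, against 737, 1324 and 1653 CPM with BPA. Summed preoptic markers had 60.8, 73.0 and 94.8 CPM with the mixture, against 46.6, 57.8 and 77.2 CPM with BPA. Their part in the members' values was not tested.

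With equal BPA dose, the 150 µg/kg/day mixture against BPA, 0 of 7 members in males had an unadjusted p under 0.05 (2.16% of all genes higher and 2.14% lower), and 0 passed after adjustment by edgeR or DESeq2. Psme1 came nearest at 0.35 (95% interval -0.0042 to 0.71). In females the 50 µg/kg/day mixture differed from BPA by -0.05 for Psmb8 (-0.50 to 0.40) and by at most 0.14 for any member, which was B2m (-0.00046 to 0.27). Of the 7 members 0 had an unadjusted p under 0.05 there (1.99% of all genes higher and 2.22% lower). The female 150 µg/kg/day mixture differed from BPA by -0.51 for Psmb8 and by -0.07 to 0.11 for the other 6. That Psmb8 value is built on the mixture libraries that entered the choice of the gene, so it is given without an interval or a p-value. The intervals of Psmb8 and of the other genes of low count are wide, so they do not show that the compounds act alike.

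Sex and maternal care showed little for these genes. The female minus male difference, averaged over exposures, ran from -0.13 for Psme1 to 0.04 for Psmb9 over the 6 tested members other than Psmb8, with adjusted p of 0.889 to 0.997 by edgeR, while 18 of 19026 genes tested (0.0946%) passed. Psmb8 was at -0.13, given without a p-value since the average holds the libraries that chose it. For licking and grooming by the dam and for nest attendance over postnatal days 1 to 5, 0 of 7 members in either sex had an unadjusted p under 0.05, and 0 passed after adjustment by edgeR or DESeq2. Of all genes, 1.27% had a positive and 1.48% a negative licking and grooming slope at an unadjusted p under 0.05 in females, as did 2.17% and 2.28% in males. For nest attendance these shares were 1.58% positive and 1.59% negative in females, and 1.17% and 1.12% in males. The steepest member slope was 0.14 log2 units per SD of nest attendance, for female Psmb9 (95% interval -0.085 to 0.37).

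Relations of members across libraries were taken after the exposure group means had been removed. Median counts of Psmb8, Psmb9, Tap1 and Tap2 were 16, 9, 19 and 4 in females and 19, 9, 18 and 3 in males. At such counts a relation can be hidden by counting noise, so a pair that did not pass is no sign that its genes vary apart. Over 56 pairs, 28 per sex, 1 pair passed an adjusted permutation p of 0.05 in females and 3 in males. Psme1 and Psme2, the subunits of 1 ring, varied together in both sexes. Pearson's r was 0.739 in females (Spearman's rho 0.687, permutation p = 0.00015, adjusted 0.0032, n = 22) and 0.697 in males (rho 0.766, permutation p = 0.00017, adjusted 0.0032, n = 23). Without the 2 libraries farthest from the median of Psme1 it was 0.636 and 0.631. Pseudogene copies of both genes are listed and can share reads with them. The highest counts assigned to the copies in a library were 14 for Psme1-ps1 and 13 for Psme2-ps2. Psme1 had at least 257 and Psme2 at least 119. How shared reads were assigned is not known, and their part in this relation was not tested.

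In males Psme1 also varied with B2m (r = 0.795, rho = 0.771, adjusted permutation p = 0.0011) and with Tap1 (r = 0.653, rho = 0.625, adjusted permutation p = 0.0094). In females these were 0.374 and 0.262, with adjusted permutation p of 0.436 and 0.834, and the difference between the sexes was not tested. For the neighbours of Psmb8 on chromosome 20 no relation with it passed, and at these low counts one could have gone undetected. Its r with Tap1 was -0.174 in females and 0.048 in males, with Tap2 -0.035 and -0.117, and with Psmb9 0.122 and 0.085, all with adjusted permutation p of 0.877 or more. Psmb8 and Psme2 ran opposite in females at r = -0.497, which did not pass (adjusted permutation p = 0.151).

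**Figure D3:**
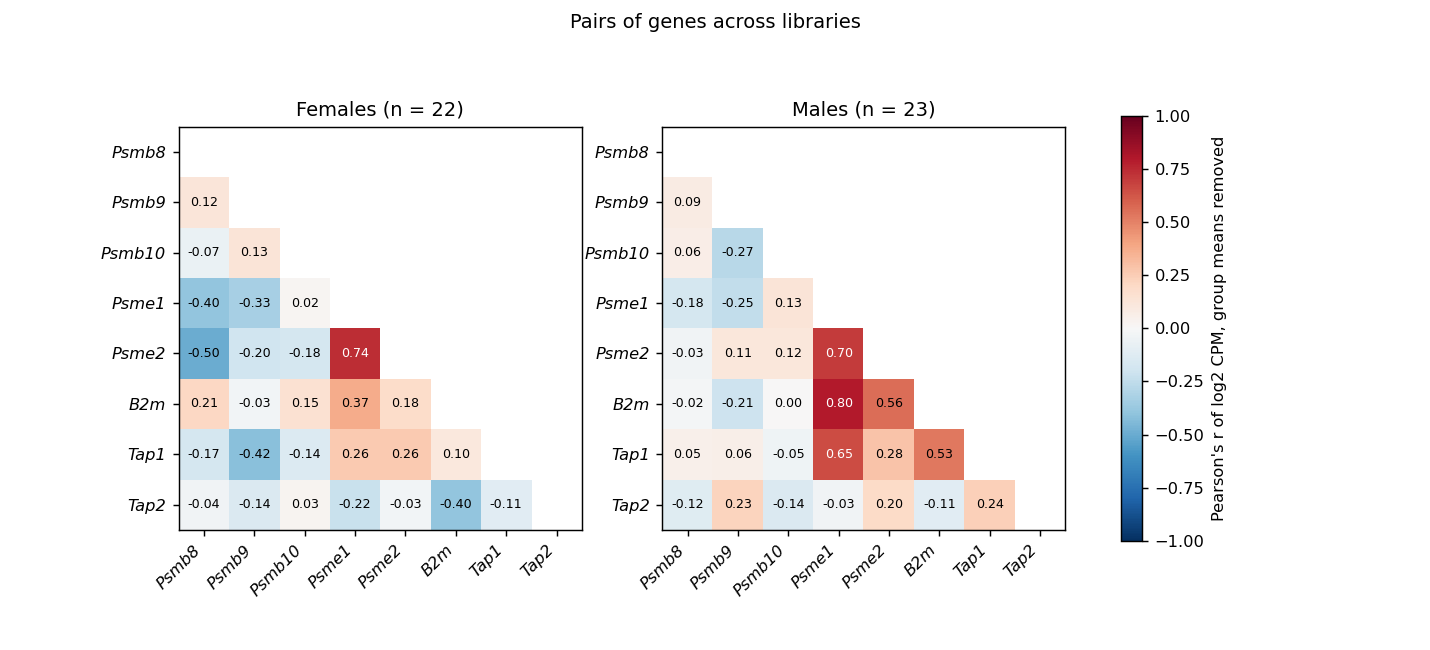
Pearson's r (colour scale and numbers) of log2 CPM between each pair of the 8 genes over 22 female and 23 male libraries, with exposure group means removed. Psme1 with Psme2 is high in both panels, and Psme1 with B2m and Tap1 is high in males.

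**Figure D4:**
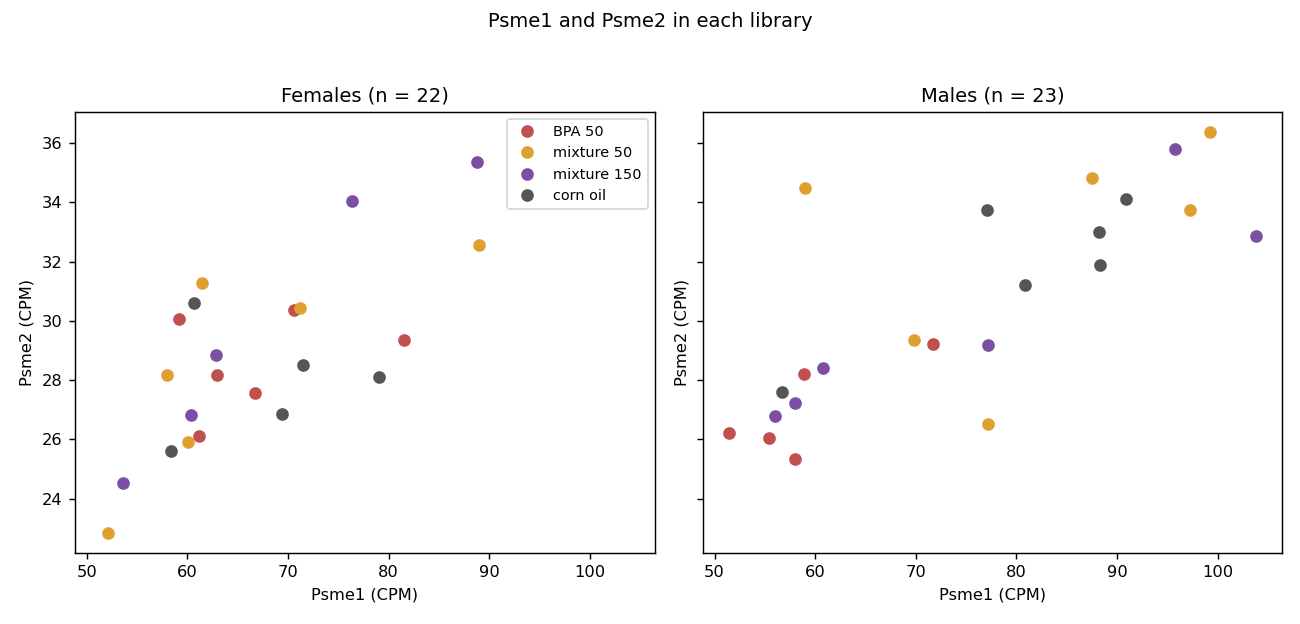
Psme2 (vertical axis, CPM) against Psme1 (horizontal axis, CPM) in each library, coloured by exposure of the dam with doses in µg/kg/day. In males the 5 BPA libraries lie toward the low end of both axes, at 51.5 to 71.7 CPM of Psme1 and 25.3 to 29.2 CPM of Psme2.

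The members were also set against mean log2 CPM of marker and pathway lists, 96 relations in all, of which 5 passed in females and 1 in males. Female Psme2 was lower where markers of pericytes and fibroblasts were higher (r = -0.743, rho = -0.754, adjusted permutation p = 0.0048, and -0.670 without the 2 farthest libraries). Female Psme1 did likewise at r = -0.712 (rho = -0.688, adjusted permutation p = 0.0070). Endothelial markers gave -0.714 with Psme2 (rho = -0.633, adjusted permutation p = 0.0070) and -0.650 with Psme1 (rho = -0.666, adjusted permutation p = 0.021). In males the same 4 relations were between -0.169 and -0.345 and did not pass. Summed pericyte and fibroblast markers ran from 185 to 515 CPM over female libraries, and the part of these cells in the values of Psme1 and Psme2 was not tested. Lymphocyte markers gave -0.650 with female Psme1 (adjusted permutation p = 0.021), but rho was -0.435 and did not pass (adjusted 0.301), and only Cd4 was behind that score.

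B2m in males varied with the MHC class I heavy chains, which it pairs with on the cell surface (r = 0.617, rho = 0.630, adjusted permutation p = 0.029). This call was lost with a prior count of 0.5 (adjusted permutation p = 0.061) and with group means left in (adjusted permutation p = 0.151). In females r was 0.119. The heavy chain genes, 38 RT1 genes of which 18 were tested in males, are near-identical copies that can share reads, so their counts are uncertain. Microglial markers gave 0.491 with B2m in females and 0.550 in males, neither past the adjusted threshold by Pearson's r (rho passed in females, adjusted permutation p = 0.044), and -0.082 and 0.034 with Psmb8. With female Psmb10 they gave 0.538 (rho = 0.398, adjusted permutation p = 0.104), and 0.294 without the 2 farthest libraries. In 21 litters with both sexes, the female and male values of a member were not related past the threshold. Psme1 came nearest at r = 0.451 (rho = 0.481, permutation p = 0.041, adjusted 0.316).

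In males of BPA some cell and region markers also differed from oil, where 50% of all genes lay below oil. All 7 striatal markers were above oil, with a median log2 difference of 0.57 and sums of 737 to 1653 CPM in BPA libraries against 475 to 1314 CPM in oil libraries. Preoptic markers had sums of 46.6 to 77.2 CPM against 58.7 to 109 CPM, and 4 of 6 tested were below oil. Of 14 microglial markers 10 were below oil, with sums of 214 to 253 CPM against 229 to 281 CPM. At an unadjusted p under 0.05, 1 marker was lower, as were 5.43% of all genes, and 1 was higher. C1qa, a complement gene, was at -0.41 ± 0.16 (unadjusted p = 0.013, adjusted p = 0.380 by edgeR), and P2ry12, a microglial receptor, at 0.20 ± 0.08 (unadjusted p = 0.020, adjusted p = 0.405). Of 11 endothelial markers 10 were above oil, with sums of 258 to 305 CPM against 241 to 264 CPM. Among ependymal markers Foxj1 was at 0.89 ± 0.31 (unadjusted p = 0.0080, adjusted p = 0.365 by edgeR) and Dnah12 at -0.05 ± 0.08. Neuron markers went both ways, with Tubb3 at -0.39 ± 0.14 (unadjusted p = 0.0081, adjusted p = 0.365 by edgeR) and Syt1 at 0.17 ± 0.08 (unadjusted p = 0.047, adjusted p = 0.438). None of these lists had a member past an adjusted p of 0.05 by edgeR. The part of tissue makeup in the members' values was not tested.

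Other genes of the pathway were counted by list in the same BPA males, where 50% of all genes lay below oil. Of 7 genes for peptide loading and trimming 5 lay below oil, with a median log2 difference of -0.11 and 0 at an unadjusted p under 0.05. Tapbp, which bridges the transporter and the empty class I molecule, was at -0.18 ± 0.10, and Lnpep at 0.10 ± 0.10. Of 18 MHC class I heavy chains tested 6 lay below oil, with a median of 0.16. Of 16 other subunits and assembly factors of the proteasome core 13 lay below, with a median of -0.04, and 2 were lower at an unadjusted p under 0.05, as were 5.43% of all genes. Psma6, a structural core subunit, was at -0.17 ± 0.07, and Psmg3 at 0.26 ± 0.20. Of 3 other activators and inhibitors 2 lay below, with Psmf1, a proteasome inhibitor, at -0.20 ± 0.10 and Psme4 at 0.12 ± 0.07.

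Genes upstream and downstream of interferon were spread around oil in the same males. Of 12 receptor and signalling genes tested 7 lay below oil, with a median of -0.02. Ifnar2, a chain of the type I interferon receptor, was at 0.23 ± 0.07 and Stat2, a signalling factor, at -0.36 ± 0.20. Of 19 interferon-induced genes tested 9 lay below oil, with a median of 0.03. Xaf1 was at -0.60 ± 0.25 and Trim25 at 0.27 ± 0.27. Of 8 factors that act on MHC genes 4 lay below, with a median of -0.01. Nlrc5, the class I transactivator, was at 0.16 ± 0.08 and Rfxap at -0.17 ± 0.10. Of 3 MHC class II genes tested 1 lay below. Cd74, the invariant chain, was at 0.27 ± 0.32 and RT1-DMa at -0.09 ± 0.26. By edgeR 0 genes of these lists passed an adjusted p of 0.05, where 0% of all genes did.

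The genes most like Psmb8 and B2m over libraries were taken from 14696 genes with an assigned symbol, with the members left out, by the lower of the female and the male Pearson's r of log2 CPM after exposure group means had been removed. They are a description with no test. For B2m these were Mdh1, a malate dehydrogenase (0.871 in females and 0.833 in males), Uhmk1, a kinase (0.778 and 0.806), Cycs, cytochrome c (0.778 and 0.885), Pnpla8, a phospholipase (0.778 and 0.753), and Uqcr10, a subunit of respiratory complex III (0.751 and 0.830). For Psmb8 the values were lower, with C1qtnf3 (0.702 and 0.585), Rasd2 (0.596 and 0.570), Gtf2a2 (0.638 and 0.565), Bmp6 (0.546 and 0.587) and Timm21 (0.571 and 0.539).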

How the data were processed

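Raw counts per gene, 1 table per sex, are the deposited values. Both are labelled as having outliers removed, and how this shaped the values was not tested. Per the submitters' processing notes, cutadapt 1.18, STAR 2.7.3a, SAMtools 1.10, bedtools 2.27.1 and build mRatBN7.2 were named. Strand setting, annotation and duplicate handling were not given in the sources used here. Per the labels' protocols, RNA came from frozen tissue through a kit for fixed tissue. All 45 columns matched a library by name. Litters were read from library names.

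Tests on the counts used edgeR 4.0.16 (R 4.3.3): filterByExpr (minimum count 10, minimum total 15), TMM scaling, and robust quasi-likelihood F-tests adjusted by Benjamini-Hochberg over all genes tested (threshold 0.05), with the 4 exposure groups of a sex in 1 fit and both sexes in another for sex differences. CPM use TMM-scaled totals, and log2 CPM a prior count of 2. Intervals are 95%. Correlations used two-sided permutation tests of 100000 resamples, adjusted within each family, in Python 3.11.15 with scipy 1.17.1, numpy 2.4.6 and matplotlib 3.10.9. Alternatives were DESeq2 1.42.0, RLE scaling, no filter, only the compared groups, the replicate number as a block, the litter as a random block (limma 3.58.1), a prior count of 0.5, group means left in, and each library left out. The fits were tested on simulated data.

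The members and gene lists were chosen with earlier results of these data known. Named were all members, their 3 constitutive counterparts and, of each other list, the gene with the lowest p per direction in male comparisons, of which some are printed. Replicate numbers did not pair libraries: same-numbered libraries of different exposures correlated at -0.0037 in females and -0.012 in males on average. Of 40643 identifiers 35203 matched a RefSeq symbol (GRCr8). Promoter windows came from RefSeq for all 8 members.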

Additional observations from a re-analysis of the deposited data

Results flagged for a closer look

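B2m in males of BPA held 1 library far from its group: replicate 5 stood at 170.6 CPM, the highest of the 5, while the next lay at 139.7 CPM. Its gap to the next library was 0.823 of the group's range. The limit used for such a gap is passed by chance in about 1 in 20 groups, and 8 genes in 8 groups were looked at. Psme1 in the same library, at 71.7 CPM, was also the highest of its group.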

How the results depend on the processing

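Of 543 values of members under alternatives other than leaving out a library, 6 changed sign and 0 of the 481 with a test passed the threshold. Each of the 6 was close to 0. Psme2 in females, mixture against BPA at equal total dose, was 0.000751 with DESeq2, 0.0054 without the filter and 0.0011 with only the compared groups, against -0.0016. Psmb9 in females was -0.023 for BPA against oil and 0.050 for the higher mixture dose against BPA with the replicate number as a block, and Psmb10 was 0.0075 for the BPA effect between the sexes without the filter. The replicate block left 0 genes called in all 10 comparisons, as without it. Counts of genes called, 0 over all genes in each, became 7 for BPA against oil in males, 4 for licking/grooming in males and 1 in females with DESeq2, 1 for BPA against oil in females and 1 for the lower mixture dose against BPA in males with only the compared groups, and 1 for the BPA effect between the sexes with the litter as a random block. None of these was a member, and the cause was not tested. The relation of B2m with class I heavy chains in males no longer passed with a prior count of 0.5 (r = 0.582, adjusted permutation p = 0.061) or with group means left in (r = 0.477, adjusted permutation p = 0.151).

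Leaving out 1 library at a time changed the sign of 124 of 1344 values in tested comparisons and brought 0 past the threshold. For the female contrast that chose the set, given without a test, it changed 10 of 70, with ranges of -0.100 to 0.00821 for B2m, -0.133 to 0.196 for Psmb9 and -0.101 to 0.0853 for Psme1. The lowest adjusted p of a member under any alternative was 0.169. The tested log2 differences or slopes that crossed 0 were small. For BPA against oil in females the ranges were -0.0457 to 0.0509 for B2m, -0.0982 to 0.00702 for Psmb10, -0.0576 to 0.266 for Psmb9, -0.0823 to 0.0427 for Psme1 and -0.0763 to 0.105 for Tap1. For the higher mixture dose against BPA in females the ranges were -0.229 to 0.0827 for Psmb9, -0.0831 to 0.102 for Psme1, -0.00348 to 0.126 for Psme2 and -0.0126 to 0.167 for Tap1. For the lower mixture dose against BPA in females the ranges were -0.0411 to 0.0582 for Psmb10, -0.163 to 0.0471 for Psmb8, -0.0401 to 0.259 for Psmb9, -0.144 to 0.0369 for Psme1, -0.0460 to 0.0573 for Psme2 and -0.0952 to 0.0864 for Tap1. For the lower mixture dose against oil in females the ranges were -0.0719 to 0.0120 for Psmb10, -0.163 to 0.0124 for Psme1, -0.0141 to 0.0892 for Psme2 and -0.0735 to 0.117 for Tap1. For the licking/grooming slope in females they were -0.0295 to 0.0111 for Psmb10 and -0.0511 to 0.0481 for Psme1. For the nest attendance slope in females they were -0.0423 to 0.0147 for B2m, -0.0326 to 0.0152 for Psmb10, -0.0452 to 0.0173 for Psme1 and -0.0502 to 0.0188 for Tap1. For BPA against oil in males the ranges were -0.112 to 0.00808 for Psmb10. For the higher mixture dose against BPA in males the ranges were -0.0956 to 0.00571 for Psmb10. For the higher mixture dose against oil in males the ranges were -0.0713 to 0.0249 for B2m and -0.185 to 0.0384 for Tap1. For the lower mixture dose against BPA in males the ranges were -0.0816 to 0.0103 for Psmb10. For the lower mixture dose against oil in males the ranges were -0.165 to 0.0329 for Psmb8, -0.0626 to 0.101 for Psme1, -0.0133 to 0.0795 for Psme2 and -0.0955 to 0.126 for Tap1. For the licking/grooming slope in males they were -0.0625 to 0.0472 for Psmb8 and -0.00384 to 0.0697 for Psme1. For the nest attendance slope in males they were -0.0541 to 0.00941 for B2m, -0.127 to 0.0629 for Psmb9, -0.0638 to 0.0453 for Psme1 and -0.0549 to 0.0935 for Tap1. Psmb8, Psmb9 and the transporter genes rest on few counts per library, which limits what could be detected. The sources used here name no molecular identifiers, so repeated reads of 1 molecule may be counted.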
